A study of Homo sapiens with 24 samples.

Results

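A549 cells, an established human line derived from a lung adenocarcinoma, received 25 nM of siRNAs directed at MYBL2 (siMYBL2) or of scrambled siRNA (siControl). Their poly(A) RNA was sequenced as paired reads. The comparison holds 8 of the 24 RNA-seq libraries of the study, 4 in each group, chosen by the treatment in the sample labels and paired by replicate number. The same 4 siControl libraries were also the scrambled controls of an siFOXM1 experiment with 4 libraries. A separate experiment gave both siRNAs together (siBoth, 3 libraries) and had 3 scrambled controls of its own (siControl_siBoth). The MYBL2 siRNAs were one commercial product, the RNA-seq libraries come from A549 cells alone, and neither their sequences nor the time from transfection to harvest are given in the sources used here.

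MYBL2, also called B-Myb, is a transcription factor of the MYB family that cycling cells express from late G1 onwards. Bound to the MuvB complex and together with FOXM1 it activates genes of the late cell cycle, and it is often abundant in tumours. The account below concerns mainly the genes outside the cell cycle: signalling, immune, metabolic, secretory and adhesion genes.

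Between 24025939 and 28661115 read pairs were counted on genes in each siMYBL2 library and between 23964711 and 28880535 in each siControl library. Levels are given as CPM, counts scaled to library size with TMM factors and to a common total (edgeR's CPM), which compares one gene across libraries but not genes with each other. Genes encoded in mitochondria took 5.43 to 6.53% of the counts in siMYBL2 libraries and 4.70 to 5.48% in siControl libraries, and the part of this shift in the results was not tested. Same-numbered libraries deviated together from their group means, so every test had the replicate number as a block. A gene is said to have risen or fallen where edgeR's quasi-likelihood test gave a Benjamini-Hochberg adjusted p under 0.05 and the fold change was over 1.5. In bulk RNA, fewer cells in a state that expresses a gene and less of its RNA per cell cannot be told apart.

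The knockdown was strong in every library. MYBL2 (ENSG00000101057.15, plus strand of chromosome 20, 43667019 to 43716495 of hg38, 14 exons) was at 5.27, 8.85, 7.18 and 4.65 CPM in siMYBL2 and 149, 159, 182 and 134 CPM in siControl. Its mean level fell to 4.16% of the control, from 156 ± 20.0 to 6.49 ± 1.91 CPM (SD, n = 4 in each group; log2 fold change −4.59, SE 0.0908, edgeR adjusted p = 2.6e-12). No siMYBL2 library came near the lowest siControl library.

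Of 16065 genes tested, 757 fell (4.71%) and 1234 rose (7.68%). Of the genes that fell, 7 are on the S-phase list of the Seurat package and 17 on its G2/M list, so that 733 of the genes that fell and 1233 of those that rose lie outside these lists. A mean under 50 counts per library was found for 44% of the genes that rose, 21.9% of those that fell and 21.0% of all genes tested. The median GC content of the canonical transcripts was 54.1% for genes that rose, 49.9% for genes that fell and 48.8% for all. The change was over 2-fold for 454 rises and 196 falls. Normalized counts of the 4 siMYBL2 and the 4 siControl libraries did not overlap for 573 of the falls and 730 of the rises, beside 23.1% of all genes tested. Without the replicate block, 565 genes fell and 704 rose.

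The response was described with 32 lists of signalling, immune, metabolic, secretory, adhesion and survival genes, which hold 1451 different genes that were tested. Of these, 73 fell and 169 rose. The 3 largest falls and rises named per list were picked among genes whose groups did not overlap. Their separation was thus part of the choice. With the replicate block, interferon-stimulated genes and NF-kB and chemokine genes had the highest shares of rises among the lists. Without it 10 of 48 interferon-stimulated genes and 3 of 39 NF-kB and chemokine genes rose, beside 7 of 37 genes of ion transport and pH control and 7 of 47 tight junction and polarity genes. The TCA cycle and respiratory chain list had 0 calls among 45 genes tested, by edgeR and by DESeq2. At an unadjusted p under 0.05 edgeR found 6 of them lower and 14 higher, at folds under 1.5.

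**Figure D1:**
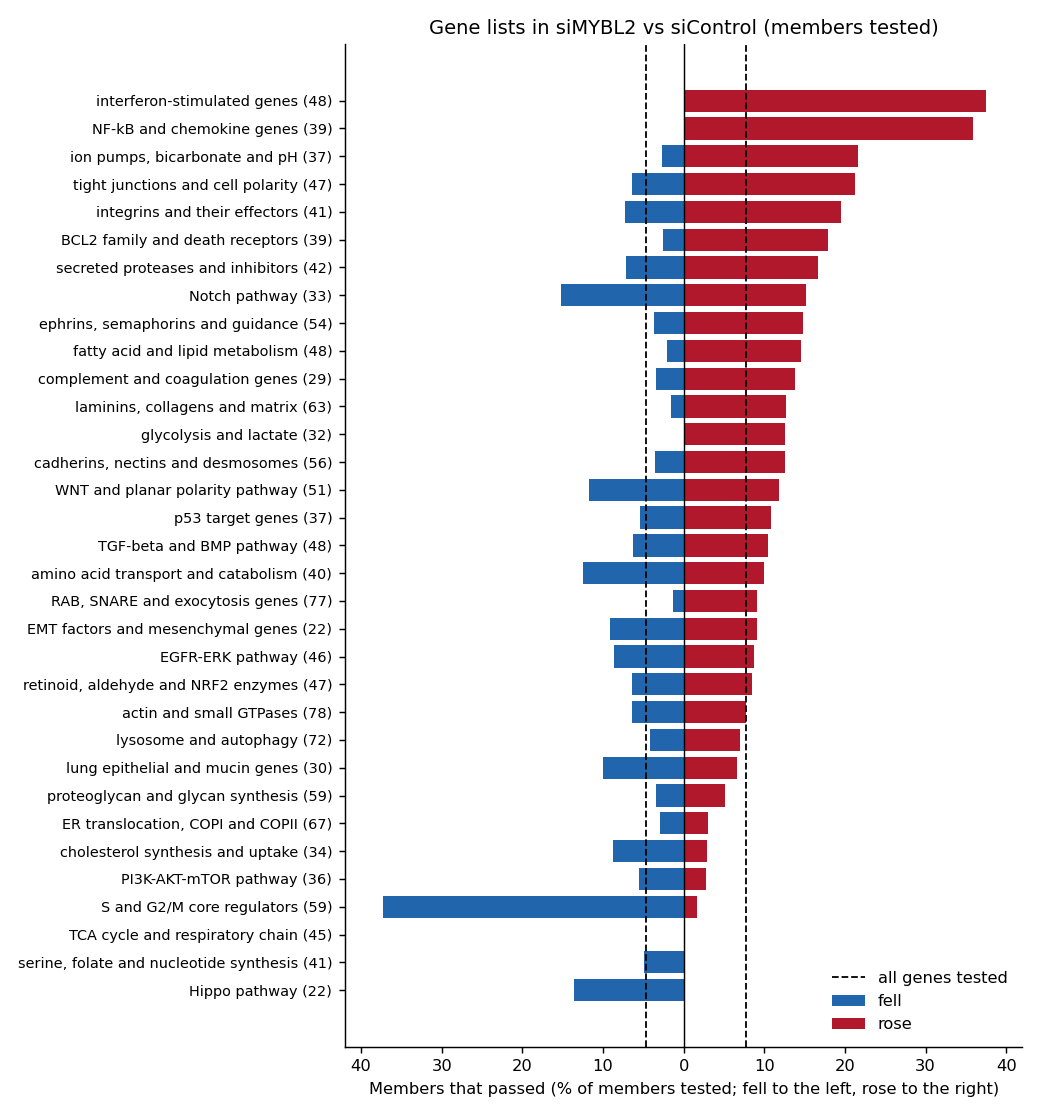
Share of the tested members of each gene list that fell (blue, to the left) or rose (red, to the right) in siMYBL2 vs siControl, in percent, with the number of members tested in brackets. Dashed lines give the shares over all 16065 genes, 4.71% for falls and 7.68% for rises, and the S and G2/M core regulators, shown for reference, have the longest bar to the left at 37.3%.

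Leading genes were those outside the Seurat cell-cycle lists whose counts averaged 100 or more and whose groups were fully separate. Some genes with fewer counts had larger fold changes and are not described. The largest falls by this rule were those of genes with no shared textbook pathway. DAP, a suppressor of autophagy, was at 18.3, 27.2, 12 and 21.3 CPM in siMYBL2 and 138, 134, 108 and 121 CPM in siControl. The highest siMYBL2 library was far under the lowest siControl library, and the fall was 6.47-fold (log2 fold change −2.69, SE 0.105, edgeR adjusted p = 1.48e-09). VANGL1, a membrane protein of planar cell polarity, was at 13.1, 17, 14.7 and 13.4 CPM in siMYBL2 and 65.8, 57.8, 66.1 and 62 CPM in siControl, a 4.32-fold fall (log2 fold change −2.11, SE 0.0799, edgeR adjusted p = 1.28e-09). EXTL3, a glycosyltransferase that starts heparan sulfate chains, was at 19.1, 23.3, 17.9 and 21.2 CPM in siMYBL2 and 87.3, 84.3, 80.1 and 88.4 CPM in siControl, 4.18-fold lower (log2 fold change −2.06, SE 0.0616, edgeR adjusted p = 1.45e-10). For all 3 genes the groups were far apart, and DAP varied most between siMYBL2 replicates. SHISA5, a p53-responsive gene of the endoplasmic reticulum, had a log2 fold change of −1.82 and IMMT, which shapes mitochondrial cristae, one of −1.65. RAI14, an actin-binding protein of cell junctions, was at 86.1, 84.4, 89.1 and 51.2 CPM in siMYBL2 and 270, 245, 308 and 166 CPM in siControl (−1.67). ZNF845 and ZNF765, zinc finger genes of one chromosome 19 cluster whose similar sequences make the assignment of reads uncertain, both had a log2 fold change of −1.72. CA12, a carbonic anhydrase of the cell surface that hydrates carbon dioxide, fell in each pair, from 703, 561, 543 and 1010 CPM in siControl to 227, 195, 160 and 309 CPM in siMYBL2 (log2 fold change −1.66, SE 0.0438, edgeR adjusted p = 5.84e-11).

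Of these 9 genes, 6 hold the word CCTTACA or the word ACGCCCA in their 3′ UTR. Both words were chosen with earlier results of these data known, and they are shown here because both also occur in the coding sequence of MYBL2. The windows below are from hg38 and GENCODE V44 canonical transcripts, 5′ to 3′ on the strand of the gene, with the word in capitals. In MYBL2 the first word lies in exon 7 and the second in exon 8 of 14. The windows of DAP (exon 4 of 4), VANGL1 (exon 8 of 8), CA12 (exon 11 of 11), ALDH1A1 (exon 13 of 13), RDH11 (exon 7 of 7) and SAPCD2 (exon 6 of 6) lie in the 3′ UTR.
MYBL2, first word (chr20:43699951-43699971, plus strand): gagcctgCCTTACAagtgggt
MYBL2, second word (chr20:43702849-43702869, plus strand): cagcctcACGCCCAagagcac
DAP (chr5:10680906-10680926, minus strand): tcctttgCCTTACAtttccat
VANGL1 (chr1:115691674-115691694, plus strand): agcctcgCCTTACAactaatt
CA12 (chr15:63325759-63325779, minus strand): atctgcaCCTTACAactcggg
ALDH1A1 (chr9:72901149-72901169, minus strand): agcatctCCTTACAgtcacta
RDH11 (chr14:67677246-67677266, minus strand): ggcatttCCTTACAttgtctt
SAPCD2 (chr9:137063797-137063817, minus strand): tgctctcACGCCCAgcctgtc

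Among 13303 tested genes with a 3′ UTR of at least 30 bases, 1150 (8.64%) hold CCTTACA and 613 (4.61%) hold ACGCCCA. Of the genes with CCTTACA 12.2% fell, and of those with ACGCCCA 10.8%, beside 4.62% of all genes with a 3′ UTR and 3.62% of those with neither word. Rises went the other way, at 5.91%, 4.40% and 8.06% for the first word, the second word and neither. These counts describe a pattern already seen in the same libraries and carry no test. The 3′ UTRs that hold a word are longer, with a median of 3224 bases against 1149 for those with neither, and longer sequences hold any word more often. With the 3′ UTRs split by length into 3 bins of like size, in the shortest (30 to 750 bases), 20 of 97 genes with either word fell (20.6%), beside 3.34% of 4339 with neither. In the middle bin (751 to 2173 bases) the shares were 18.2% of 435 and 4.13% of 3998, and in the longest bin 8.43% of 1127 and 3.36% of 3307. Within each bin the 3′ UTRs with a word were still longer. Their median lengths were 475, 1530 and 4410 bases, against 339, 1321 and 3376 for those with neither. The part of length in these shares was not tested, and other words were not counted. Over all 13303 genes 1659 hold either word (12.5%), as do 194 of the 615 that fell and 91 of the 1030 that rose. With cell-cycle genes kept in, the words were found in 16 of the 30 genes with the largest falls by the rule above and in 2 of the 30 with the largest rises. Of the 73 topic-list genes that fell, 31 hold a word, as do 10 of the 169 that rose. Why these genes share a word with the MYBL2 transcript was not tested.

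**Figure D2:**
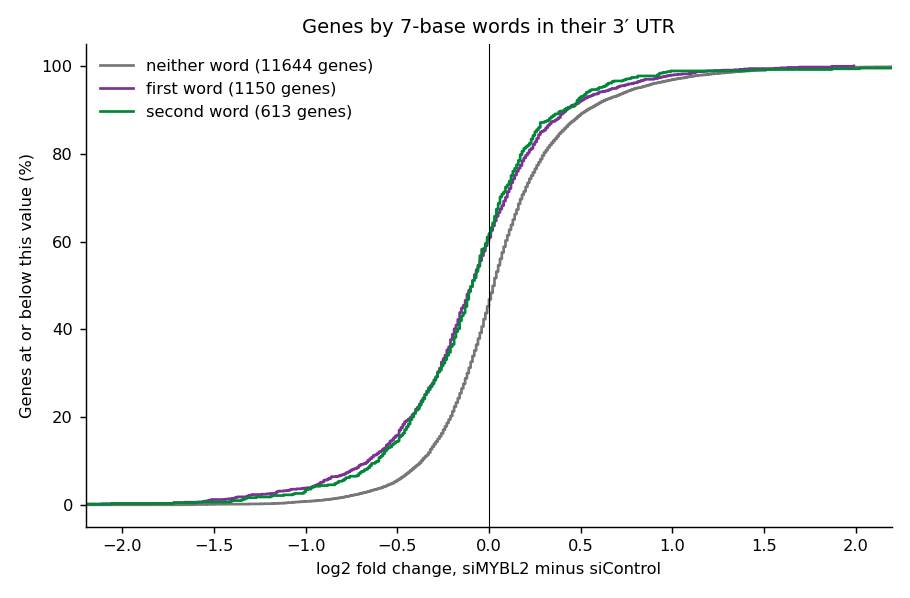
Cumulative share of genes (percent, vertical axis) by log2 fold change in siMYBL2 vs siControl (horizontal axis) for 11644 genes with neither word in the 3′ UTR (grey), 1150 with the first word (purple) and 613 with the second (green); 28 genes beyond ±2.2 are counted but not drawn. Both word curves lie to the left of the grey one, with medians of −0.09 for each word and 0.03 for neither.

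The largest rise by the same rule was that of SLC4A8. This gene, a sodium-driven chloride and bicarbonate exchanger that raises the pH of the cell, was at 29.8, 30.8, 38 and 39 CPM in siMYBL2 and 4.98, 5.39, 8.17 and 5.45 CPM in siControl, a 5.73-fold rise (log2 fold change 2.52, SE 0.0916, edgeR adjusted p = 8.45e-10). ITGAX, the integrin chain CD11c of myeloid cells, was at 16.1, 12.3, 15.2 and 15 CPM in siMYBL2 and 3.6, 3, 2.52 and 2.77 CPM in siControl, 4.93-fold higher (log2 fold change 2.30, SE 0.109, edgeR adjusted p = 5.9e-09). ABAT, the transaminase that degrades GABA, was at 5.23, 5.76, 6.79 and 6.85 CPM in siMYBL2 and 1.13, 1.62, 1.28 and 1.66 CPM in siControl, 4.32-fold higher (log2 fold change 2.11, SE 0.14, edgeR adjusted p = 1e-07). In all 3 the lowest siMYBL2 library was above the highest siControl library, as the rule required. NLRP1, an inflammasome sensor, was at 14.8, 10.8, 14.9 and 14.6 CPM in siMYBL2 and 3.52, 2.5, 3.66 and 3.62 CPM in siControl (2.05). SYT11, a synaptotagmin of vesicle traffic, had a log2 fold change of 2.05, and RAB39B, a neuronal RAB GTPase, one of 1.99. FAM131B and TMEM59L are less well characterised. FAM131B was at 22.7, 16.9, 17.2 and 23.5 CPM in siMYBL2 and 5.74, 5.47, 3.34 and 5.62 CPM in siControl, and TMEM59L rose by 1.99 on the log2 scale. LRRC4B, a synaptic adhesion protein, and NOVA2, a neuronal splicing factor, rose by 1.94 and 1.87, and siMYBL2 replicate 4 was the highest library for both. The largest edgeR adjusted p among these 10 genes was 1.37e-07.

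**Figure D3:**
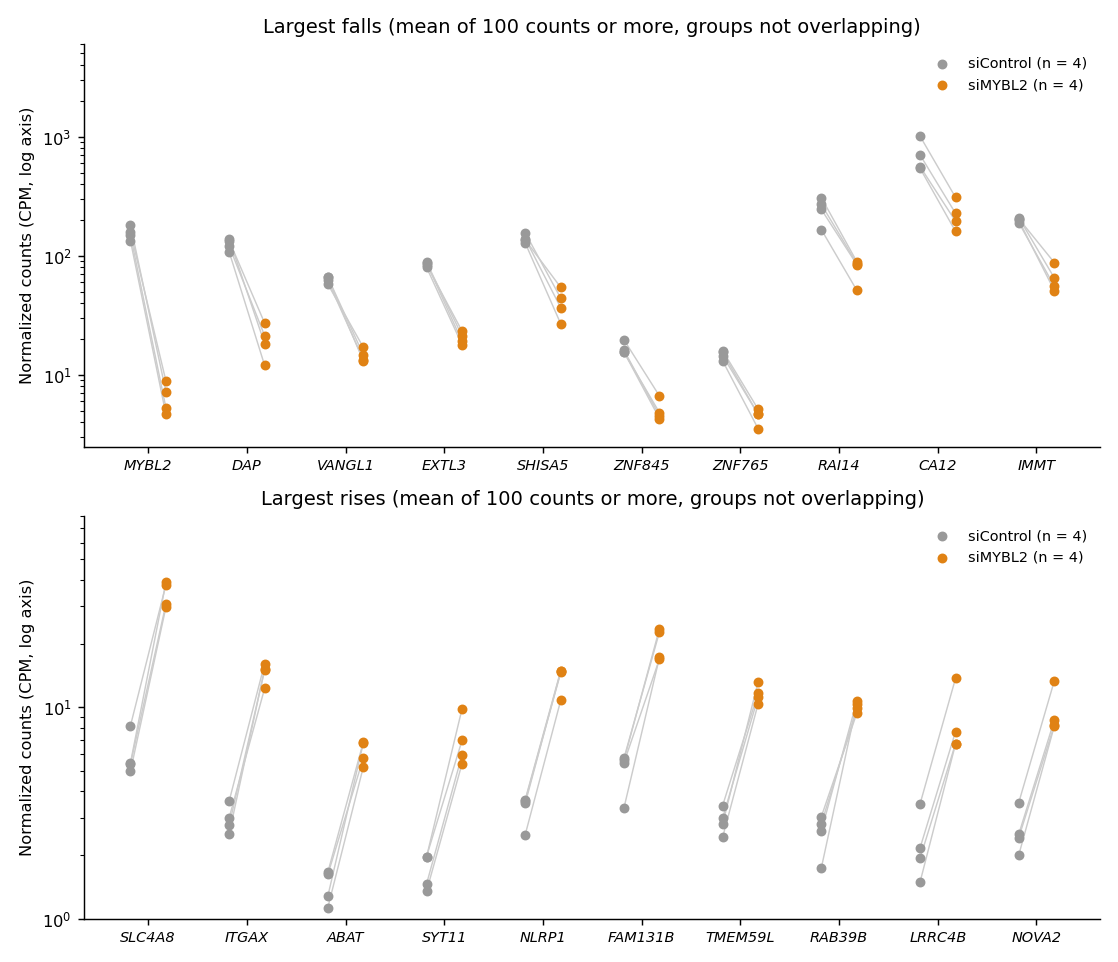
Normalized counts (CPM, log axis) of the 10 genes with the largest falls, MYBL2 among them, and the 10 with the largest rises, of those whose counts averaged 100 or more and whose groups were fully separate, in each of 4 siControl (grey) and 4 siMYBL2 (orange) libraries, with lines joining libraries of the same replicate number. All 4 pairs of each gene move the same way, as full separation of the groups requires.

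Interferon-stimulated genes are switched on by type I interferon through JAK-STAT signalling, and A549 cells can make and answer interferon. In siMYBL2 libraries 18 of the 48 members tested rose (37.5%) and 0 fell by edgeR's test. At an unadjusted p under 0.05 4 members were lower and 34 higher, and DESeq2 called 15 rises and 0 falls. Their median log2 fold change was 0.47, beside 0.01 for all genes. OASL, a 2′-5′-oligoadenylate synthetase-like protein, was at 5.31, 4.08, 4.54 and 3.68 CPM in siMYBL2 and 1.8, 1.42, 1.24 and 0.554 CPM in siControl (log2 fold change 1.82, SE 0.181, edgeR adjusted p = 3.29e-06). MX1, a GTPase that traps viral nucleocapsids, was at 3.63, 1.99, 4.7 and 3.03 CPM in siMYBL2 and 1.3, 1, 1.85 and 1.15 CPM in siControl (1.32), and IFIT1, which binds viral RNA caps, at 4.7, 5.55, 5.64 and 7.14 CPM in siMYBL2 and 2.72, 2.5, 1.53 and 3.15 CPM in siControl (1.23). In all 3 genes the groups did not overlap, as the rule for the largest rises of a list required. Their levels stayed under 10 CPM in every library. ISG15, a ubiquitin-like modifier, had a log2 fold change of 1.11. Of 6 sensors of foreign nucleic acid 3 rose, RIGI (0.64), IFIH1 (0.75) and STING1 (0.76), as did 12 of 26 effectors and 3 of 10 antigen presentation genes. Of 6 transcription factors 0 passed by edgeR or DESeq2, with 1 lower and 4 higher at an unadjusted p under 0.05. Without the replicate block 10 members rose, and STING1 was not among them (edgeR adjusted p = 0.113).

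The promoters of several of these genes hold the core of the interferon-stimulated response element, which is why a few windows are shown. The motif searched was GAAA, 2 bases of any kind and GAAA again, on either strand (TTTC, 2 bases and TTTC on the other), in the 250 bases before to 50 bases after the start site, with overlapping matches allowed. Sequences are from RefSeq, build GRCh38.p14, written 5′ to 3′ on the strand of the gene with the match in capitals.
ISG15 (chr1:1013374-1013403, plus strand): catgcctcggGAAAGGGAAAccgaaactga
IFIT1 (chr10:89392497-89392526, plus strand): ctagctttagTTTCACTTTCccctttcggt
MX1 (chr21:41420559-41420588, plus strand): gagcagaaatGAAACCGAAActgaattgtc
BST2 (chr19:17405741-17405770, minus strand): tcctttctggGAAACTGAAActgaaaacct

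A match was found in 996 of 27305 promoters (3.65%) and in 23 of the 36 interferon-stimulated genes with a promoter in the table (63.9%). It was present in 10 of 14 members that rose (71.4%) and in 13 of 22 that did not pass (59.1%). Among all 818 promoters of genes that rose, 4.52% held it. The list was chosen for its known interferon response, and the shares are a description with no test.

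NF-kB is held in the cytoplasm by IkB proteins until cytokine or stress signals release it, and it then drives chemokines, cytokines and its own inhibitors. Of 39 NF-kB and chemokine genes tested 14 rose (35.9%) and 0 fell by edgeR's test, with a median log2 fold change of 0.19. At an unadjusted p under 0.05 4 were lower and 19 higher, and DESeq2 called 13 rises and 0 falls. CCL2, a monocyte chemokine, was at 70.5, 47, 88.3 and 14.1 CPM in siMYBL2 and 20.6, 17.1, 25.5 and 3.75 CPM in siControl. It was higher in siMYBL2 in 4 of 4 pairs (log2 fold change 1.71, SE 0.0707, edgeR adjusted p = 2.1e-09), but replicate 4 was low in both groups and the ranges overlapped. CXCL8, a neutrophil chemokine, was at 206, 72.1, 159 and 24.8 CPM in siMYBL2 and 106, 83, 56.3 and 11.8 CPM in siControl and was higher in 3 of 4 pairs (0.81). EBI3, a subunit of the cytokines IL-27 and IL-35, was at 4.66, 4.29, 4.46 and 2.63 CPM in siMYBL2 and 1.3, 1.12, 1.21 and 0.937 CPM in siControl and the groups did not overlap (log2 fold change 1.81, SE 0.158, edgeR adjusted p = 1.03e-06). BIRC3, an inhibitor of apoptosis and NF-kB target, had a log2 fold change of 1.05. IL1B had one of 2.29 (SE 0.525) from a mean of 0.228 CPM in siControl. NFKBIA, the IkB that answers NF-kB first, was at 134, 114, 116 and 65.9 CPM in siMYBL2 and 108, 114, 83.3 and 66.9 CPM in siControl and did not pass the fold threshold (log2 fold change 0.19, SE 0.0699, edgeR adjusted p = 0.0369). Without the replicate block 3 members of the list rose, and the edgeR adjusted p was 0.0834 for CCL2, 0.0899 for BIRC3, 0.0546 for IL1B and 0.443 for CXCL8. Without the libraries of replicate 3, CXCL8 had a log2 fold change of 0.55, under the fold threshold. Among the 29 complement and coagulation genes tested 4 rose and 1 fell (2 rises and no fall without the block), and PLAT, tissue plasminogen activator, rose by 1.38 on the log2 scale.

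**Figure D4:**
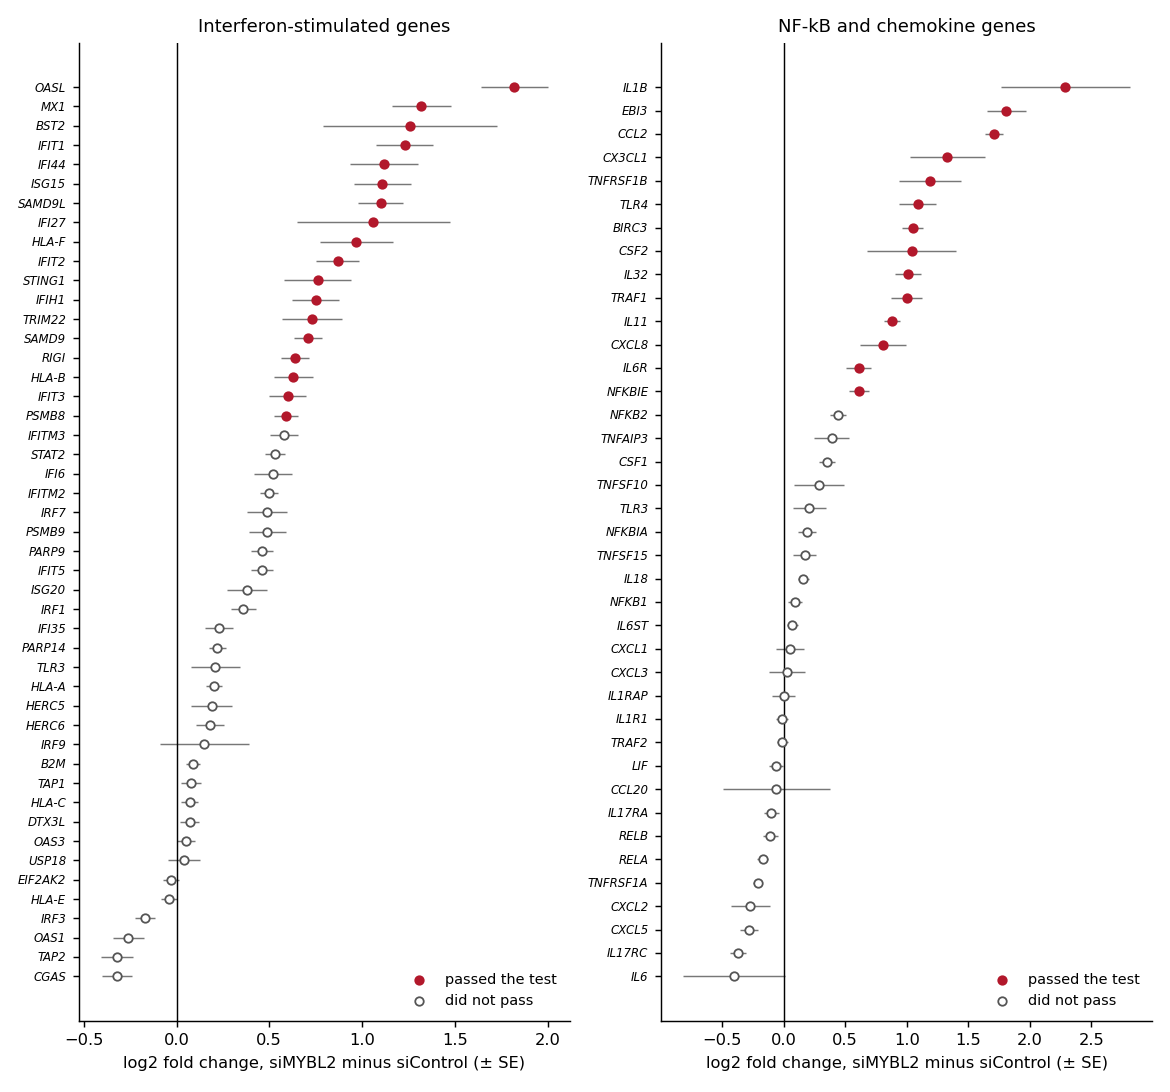
log2 fold change in siMYBL2 vs siControl (horizontal axis, bars are ± SE of the fit) for 47 of the 48 interferon-stimulated and each of the 39 NF-kB and chemokine genes tested, in order of the change. Filled red points passed the test, 18 on the left and 14 on the right, and the points left of zero are open.

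Growth factor receptors of the ERK and PI3K pathways carry signals for growth and survival. Of 46 EGFR-ERK pathway genes tested 4 fell and 4 rose, with a median log2 fold change of −0.15. EGFR itself was at 211, 225, 258 and 123 CPM in siMYBL2 and 340, 430, 389 and 213 CPM in siControl and was lower in 4 of 4 pairs (log2 fold change −0.75, SE 0.0502, edgeR adjusted p = 1.03e-07). GRB2, the adaptor that links receptors to RAS, was at 108, 142, 85.3 and 111 CPM in siMYBL2 and 221, 217, 205 and 225 CPM in siControl with no overlap of the groups (log2 fold change −0.98, SE 0.0758, edgeR adjusted p = 3.49e-07). The receptor ligands moved apart: AREG was lower in 4 of 4 pairs (−0.60) and EGF was higher in 4 of 4 (1.32). The feedback inhibitors of ERK also moved apart, since SPRY2 fell (−0.86) and SPRED3 rose from 7.83, 6.85, 4.87 and 6.26 CPM in siControl to 23.2, 21.5, 20 and 21.5 CPM in siMYBL2 (log2 fold change 1.75, SE 0.0885, edgeR adjusted p = 1.16e-08). DUSP6, a phosphatase induced by ERK whose exons overlap a gene on the other strand over 28.6% of their bases, was at 29.7, 27.5, 24 and 34.6 CPM in siMYBL2 and 19.6, 24.8, 14.7 and 27.5 CPM in siControl and did not pass the fold threshold (0.44). Without the block 2 members fell and 2 rose, EGFR and AREG did not pass (edgeR adjusted p = 0.0752 and 0.156), and AREG also missed the fold threshold with upper-quartile scaling (−0.55) and without replicate 2 (−0.56).

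Of 36 PI3K-AKT-mTOR genes tested 2 fell and 1 rose. IGF1R, the receptor of insulin-like growth factors, was at 183, 169, 226 and 201 CPM in siMYBL2 and 317, 309, 444 and 364 CPM in siControl (log2 fold change −0.87, SE 0.0401, edgeR adjusted p = 5.19e-09), and each siMYBL2 library was under each siControl library. AKT1S1, an inhibitor of mTORC1, fell by 0.76 on the log2 scale. Of 15 kinases of this list 0 passed by edgeR or DESeq2, with 3 lower and 4 higher at an unadjusted p under 0.05.

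The WNT and planar polarity list had 6 falls and 6 rises among 51 genes tested. All calls among receptors were falls, 3 of 13, with FZD8 at 23.2, 20.1, 16.8 and 30.5 CPM in siMYBL2 and 52, 42, 39.7 and 73.2 CPM in siControl (log2 fold change −1.18, SE 0.0562, edgeR adjusted p = 6.1e-09), FZD5 at −1.06 and RYK at −0.72 on the log2 scale. The median over the 13 receptors was −0.02. Frizzled receptors bind WNT ligands at the cell surface, and DVL2, which relays their signal, fell too (−0.71). It was the 1 fall among 11 core pathway genes, whose median was 0.01. Of 10 inhibitors and targets 3 rose and 0 fell by edgeR or DESeq2, with 2 lower and 6 higher at an unadjusted p under 0.05. Of 8 ligands 2 rose, WNT5B (0.69) among them. The 2 VANGL genes went opposite ways: VANGL1 fell as described and VANGL2 was at 20.5, 15.7, 25 and 23 CPM in siMYBL2 and 11.9, 5.97, 13 and 13.1 CPM in siControl (log2 fold change 0.96, SE 0.0931, edgeR adjusted p = 2.51e-06). PRICKLE1, another core polarity protein, fell by 0.90 on the log2 scale.

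Notch receptors are cut on contact with ligands of neighbouring cells, and 5 of 33 pathway genes fell while 5 rose (4 and 3 without the block). NUMB, an endocytic inhibitor of Notch, was at 29.4, 35.7, 27 and 37 CPM in siMYBL2 and 71.1, 78.8, 67.1 and 87.4 CPM in siControl (log2 fold change −1.24, SE 0.0501, edgeR adjusted p = 2.08e-09). NOTCH1 itself was at 22.7, 26.8, 26 and 24.2 CPM in siMYBL2 and 33.8, 38.7, 43.3 and 40.1 CPM in siControl (−0.64), and HEYL, a Notch target, fell by 0.70. NEURL1B, a ubiquitin ligase for Notch ligands, fell by 1.01, whereas MFNG, a glycosyltransferase that tunes the receptors, rose by 0.86. JAG1, a ligand, was at 144, 132, 141 and 135 CPM in siMYBL2 and 203, 189, 191 and 186 CPM in siControl and did not reach the fold threshold (−0.48). Of the 5 genes that fell, 4 hold one of the words in their 3′ UTR, NUMB, NEURL1B and NOTCH1 among them. Over all falls with a 3′ UTR 194 of 615 do. Among other lists it was 0 of 3 falls for TGF-beta and BMP genes and 2 of 2 for ER translocation and coat genes.

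In the Hippo pathway, where a kinase cascade keeps the coactivators YAP1 and WWTR1 (TAZ) out of the nucleus, 3 of 7 nuclear effectors fell and 0 of 11 kinases by edgeR or DESeq2, with 4 kinases lower and 3 higher at an unadjusted p under 0.05. WWTR1 was at 110, 106, 96 and 140 CPM in siMYBL2 and 210, 192, 210 and 247 CPM in siControl (log2 fold change −0.93, SE 0.0498, edgeR adjusted p = 1.75e-08). TEAD4, a DNA-binding partner of both coactivators, was at 18.5, 26.3, 21.3 and 17.9 CPM in siMYBL2 and 37.4, 43.9, 48.4 and 35.5 CPM in siControl (−0.98). YAP1 was at 72.3, 88.1, 71.8 and 78.1 CPM in siMYBL2 and 110, 115, 111 and 116 CPM in siControl, just under the fold threshold (−0.55), and past it without replicate 2 (−0.61). The target CCN2 went the other way, at a log2 fold change of 0.49 that did not pass.

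Of 48 TGF-beta and BMP genes tested 3 fell (6.25%) and 5 rose (10.4%), or 1 and 2 without the block. BMP2 was at 2.86, 1.37, 2.92 and 2.42 CPM in siMYBL2 and 5.69, 4.04, 4.19 and 4.05 CPM in siControl (−0.93). TGFB2 and TGFBR2, the ligand and the type II receptor of the TGF-beta branch, had log2 fold changes of −0.42 and 0.29 and did not pass the fold threshold.

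Sterol genes did not move as one. Cells make cholesterol in a chain of enzymes that SREBF2 drives and take it up through the LDL receptor. Of 34 genes of cholesterol synthesis and uptake tested, 3 fell and 1 rose. NR1H2, the sterol receptor LXR-beta with 22.1% of its exon bases under a gene on the other strand, had a log2 fold change of −0.63 (−0.57 and under the fold threshold with upper-quartile scaling), while ABCG1, a sterol exporter, rose by 0.89.

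Among 48 fatty acid and lipid genes tested 7 rose (14.6%) and 1 fell (7 rises and no fall without the block), and 4 of the rises were among 19 oxidation genes. PPARA, a receptor that induces fatty acid oxidation, was at 25.4, 21.9, 26 and 41.1 CPM in siMYBL2 and 11.7, 12.7, 10.9 and 18.4 CPM in siControl (log2 fold change 1.08, SE 0.0791, edgeR adjusted p = 2.19e-07). CPT1A, the entry step of mitochondrial oxidation, was at 185, 186, 181 and 216 CPM in siMYBL2 and 117, 130, 110 and 152 CPM in siControl (0.60), and SLC25A20, which carries acylcarnitines across the inner membrane, rose by 0.63. CPT1A stayed just under the fold threshold without replicate 1 (0.57) and without replicate 3 (0.56). On the side of synthesis, FASN was at 499, 434, 569 and 504 CPM in siMYBL2 and 653, 653, 887 and 677 CPM in siControl (−0.51) and SREBF1 had a log2 fold change of −0.33, both under the fold threshold. Synthesis genes did not move as one: of 16 tested, 1 fell and 1 rose. At an unadjusted p under 0.05 edgeR found 8 of these 16 lower and 5 higher.

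In glycolysis 4 of 32 genes tested rose (2 without the block) and 0 fell by edgeR or DESeq2, although 14 were lower and 11 higher at an unadjusted p under 0.05. HK1, a hexokinase, was at 154, 152, 152 and 167 CPM in siMYBL2 and 90.8, 99.5, 92 and 109 CPM in siControl (log2 fold change 0.68, SE 0.0426, edgeR adjusted p = 5.92e-08), and the glucose transporter SLC2A12, of low level and with 51.2% of its exon bases under a gene on the other strand, rose by 0.82. LDHA, the lactate dehydrogenase chain that forms lactate, had a log2 fold change of −0.24 and did not pass the fold threshold. In serine, folate and nucleotide synthesis 2 of 41 fell and the median was −0.19, with 30 lower and 2 higher at an unadjusted p under 0.05. These were TK1, the thymidine kinase of S phase, at 99.9, 133, 123 and 90.4 CPM in siMYBL2 and 179, 185, 219 and 171 CPM in siControl (−0.76), and MTHFD1L, a mitochondrial folate enzyme (−0.70). PHGDH, the first enzyme of serine synthesis, had a log2 fold change of −0.44 and did not reach the fold threshold.

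Of 40 genes of amino acid transport and breakdown 5 fell (12.5%, 2 without the block) and 4 rose. SLC7A1, the carrier of arginine and lysine, was at 48.4, 50, 53.3 and 37.5 CPM in siMYBL2 and 125, 138, 141 and 140 CPM in siControl (log2 fold change −1.53, SE 0.0725, edgeR adjusted p = 6.03e-09), with the groups far apart. BCAT1, which starts the breakdown of branched-chain amino acids, fell by 0.79, and the rise of ABAT is given above. SLC7A5, the carrier of large neutral amino acids, was at 838, 883, 1080 and 821 CPM in siMYBL2 and 1110, 1380, 1520 and 1190 CPM in siControl and did not reach the fold threshold (−0.52).

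Retinoid and aldehyde enzymes turn vitamin A into retinoic acid and clear aldehydes, and A549 cells are known for a high level of ALDH1A1. This gene was at 2290, 2710, 1900 and 3050 CPM in siMYBL2 and 6880, 6330, 7210 and 8640 CPM in siControl (log2 fold change −1.56, SE 0.0776, edgeR adjusted p = 9.69e-09). RDH11, a retinal reductase, was at 45.2, 40.3, 41.3 and 43.5 CPM in siMYBL2 and 116, 101, 119 and 121 CPM in siControl (log2 fold change −1.42, SE 0.0485, edgeR adjusted p = 5.46e-10). HMOX1, which breaks down heme and answers to NRF2, was the one NRF2 target of 21 to fall (−0.72). Over the 47 genes tested 3 fell and 4 rose, of which 3 and 2 passed without the block. Both ALDH1A1 and RDH11 hold the first word in their 3′ UTR, as shown above, and HMOX1 holds neither word.

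Genes of ion transport and pH control had 8 rises among 37 members tested (21.6%) and 1 fall, that of CA12, with a median of 0.28. Apart from SLC4A8, the named rises were CA8, a carbonic anhydrase-related protein, at 10.9, 23.5, 25.6 and 11.4 CPM in siMYBL2 and 4.44, 8.78, 6.97 and 6.82 CPM in siControl (log2 fold change 1.37, SE 0.136, edgeR adjusted p = 3.26e-06), and KCNQ3, a potassium channel, at 2.53, 2.23, 3.63 and 2.78 CPM in siMYBL2 and 1.26, 0.963, 1.67 and 1.19 CPM in siControl (1.14).

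Among 72 lysosome and autophagy genes tested 3 fell (4.17%) and 5 rose (6.94%). LAMP1, the main protein of the lysosomal membrane, was at 68.4, 77.4, 58 and 69.2 CPM in siMYBL2 and 170, 164, 169 and 177 CPM in siControl (log2 fold change −1.32, SE 0.0602, edgeR adjusted p = 4.98e-09), and ATG9A, a lipid scramblase of growing autophagosomes that shares 38.8% of its exon bases with a gene on the same strand, fell by 0.94. With DAP these were the 3 falls. SMPD1, the acid sphingomyelinase, was at 32.3, 28.2, 32.2 and 38.5 CPM in siMYBL2 and 18.1, 18.6, 17.1 and 17.5 CPM in siControl (0.87), and DAPK2, a kinase that promotes autophagy, rose by 1.38.

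Of 67 genes of ER translocation and of COPI and COPII coats 2 fell and 2 rose (2 and 1 without the block). MIA3 (TANGO1), which loads collagen and other bulky cargo at ER exit sites, was at 39.6, 38.3, 35.1 and 43.6 CPM in siMYBL2 and 84.9, 84.9, 89 and 90.9 CPM in siControl (log2 fold change −1.16, SE 0.0539, edgeR adjusted p = 5.19e-09). Of 77 RAB, SNARE and exocytosis genes 7 rose (9.09%, 2 without the block) and 1 fell, with 9 lower and 40 higher at an unadjusted p under 0.05. SYTL2, a RAB27 effector of secretory granules, was at 37.8, 39.9, 44.6 and 27 CPM in siMYBL2 and 18, 18.3, 19.9 and 12.6 CPM in siControl (log2 fold change 1.12, SE 0.0577, edgeR adjusted p = 1.34e-08). In proteoglycan and glycan synthesis 2 of 59 fell and 3 rose, with 15 lower and 29 higher at an unadjusted p under 0.05. Besides EXTL3, XYLT2, which adds the first sugar of the glycosaminoglycan linker, fell from 67.9, 61, 75.1 and 77.6 CPM in siControl to 39.4, 45.1, 42.3 and 43.9 CPM in siMYBL2 (−0.72).

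Integrins join the matrix to the cytoskeleton as pairs of an alpha and a beta chain, and here 1 alpha and 1 beta chain fell while 7 alpha chains and 1 beta chain rose. ITGB1, the common beta chain, was at 1860, 2140, 1250 and 1720 CPM in siMYBL2 and 3220, 3130, 3090 and 2890 CPM in siControl (log2 fold change −0.85, SE 0.0837, edgeR adjusted p = 3.04e-06). ITGA3, its partner in the laminin receptor, was at 482, 640, 384 and 337 CPM in siMYBL2 and 971, 1040, 796 and 640 CPM in siControl (log2 fold change −0.92, SE 0.051, edgeR adjusted p = 2.33e-08). TNS4, a tensin that binds beta chains, fell by 0.90. Of 14 alpha chains 7 rose, among them ITGAX, ITGA7, at 7.27, 6.96, 7.18 and 11.8 CPM in siMYBL2 and 2.93, 3.5, 2.59 and 4.82 CPM in siControl (1.26), and ITGA11 (0.97). ITGB3 rose from a mean of 0.650 to 1.69 CPM (1.39). Of the 41 members of the list 3 fell and 8 rose, and 5 rose without the replicate block.

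Matrix genes mostly rose where they passed, with 8 rises (12.7%) and 1 fall among 63. The collagen VI chains COL6A1, at 58.7, 69.3, 79.2 and 42.5 CPM in siMYBL2 and 30.3, 31.1, 37.9 and 24.6 CPM in siControl (log2 fold change 1.00, SE 0.0609, edgeR adjusted p = 4.89e-08), and COL6A2 (1.12) rose together, and COL13A1, a transmembrane collagen of low level, rose by 1.57. THBS1, a matrix protein that activates TGF-beta, fell by 0.64. Of 8 laminin chains 0 passed by edgeR or DESeq2, with 1 lower and 5 higher at an unadjusted p under 0.05. Without the block 4 members of this list rose.

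Of 42 secreted proteases and inhibitors 7 rose (16.7%) and 3 fell. MMP2, a gelatinase, was at 27.6, 19.1, 24.9 and 14.3 CPM in siMYBL2 and 16.7, 9.51, 12.5 and 8.65 CPM in siControl and was higher in 4 of 4 pairs (log2 fold change 0.87, SE 0.0766, edgeR adjusted p = 1.13e-06). ADAMTS6 and ADAMTS13, proteases of fibrillin networks and of von Willebrand factor, rose by 1.34 and 1.40, and MMP24, a membrane-bound metalloprotease with 22.1% of its exon bases under a gene on the other strand, fell by 0.83. TIMP1, an inhibitor of metalloproteases, was at a log2 fold change of 0.34, under the fold threshold. Without the block 4 members rose.

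Between cells, the tight junction and polarity list had 10 rises among 47 members (21.3%) and 3 falls, or 7 and 1 without the block. CGN, a cytoplasmic linker of tight junctions, was at 15.8, 19.8, 15.4 and 28.6 CPM in siMYBL2 and 5.23, 7.55, 7.43 and 9.25 CPM in siControl (log2 fold change 1.42, SE 0.0968, edgeR adjusted p = 1.24e-07). CLDN4, a claudin that seals the paracellular path, was at 12.1, 13.3, 10.1 and 12.1 CPM in siMYBL2 and 6.41, 7.85, 5.65 and 7.37 CPM in siControl (0.80). JAM3, an adhesion molecule of junctions with 35.6% of its exon bases under a gene on the other strand, rose by 1.07. Of 56 cadherin, nectin and desmosome genes 7 rose (12.5%, 3 without the block) and 2 fell, and 0 of 9 desmosome genes passed by edgeR or DESeq2, with 4 lower and 2 higher at an unadjusted p under 0.05. NECTIN1 was at 17.4, 20.7, 15.5 and 16.7 CPM in siMYBL2 and 34.4, 30.1, 28.9 and 36 CPM in siControl (−0.87), while MCAM, an adhesion molecule of melanoma and endothelium, rose by 0.80.

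Ephrins, semaphorins and their receptors guide cells by contact repulsion and attraction. Of 54 members tested 8 rose (14.8%, 5 without the block) and 2 fell, with a median of 0.25. Ephrin-B ligands moved in opposite directions, EFNB2 at 4.9, 5.38, 4.66 and 2.49 CPM in siMYBL2 and 14.2, 12.4, 11.1 and 6.52 CPM in siControl (log2 fold change −1.34, SE 0.0979, edgeR adjusted p = 2.13e-07) and EFNB3 at 9.52, 6.96, 9.75 and 11.7 CPM in siMYBL2 and 4.27, 2.31, 3.84 and 5.28 CPM in siControl (log2 fold change 1.29, SE 0.106, edgeR adjusted p = 6.19e-07). For EFNB2, 36.4% of the exon bases lie under a gene on the other strand. PLXNB3, a semaphorin receptor that shares 20.4% of its exon bases with a gene on the same strand, and ROBO3, a receptor of the ROBO family, rose by 0.84 and 0.77. SEMA7A, a membrane-anchored semaphorin, rose by 1.40 with the block and did not pass without it (edgeR adjusted p = 0.167). NRP1, an abundant coreceptor, had a log2 fold change of 0.40, under the fold threshold.

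In the list of actin and small GTPase genes 5 of 78 fell (6.41%) and 6 rose (7.69%). PAK4, a kinase of CDC42, was at 122, 144, 107 and 120 CPM in siMYBL2 and 217, 214, 199 and 222 CPM in siControl (−0.80), and FSCN1, which bundles filopodial actin, at 156, 171, 166 and 142 CPM in siMYBL2 and 269, 242, 272 and 235 CPM in siControl (−0.68). TIAM1 and ARHGEF16, which load small GTPases with GTP, rose by 1.07 and 0.78, and RND1, a GTPase that antagonises RHOA, was at 75.5, 53, 85.9 and 63.3 CPM in siMYBL2 and 37.2, 33.5, 31.4 and 37.2 CPM in siControl (0.98).

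Among genes of cell death, 7 of 39 rose (17.9%, 4 without the block) and 1 fell. The fall was that of TNFRSF10B, the TRAIL receptor DR5, at 133, 132, 109 and 93.8 CPM in siMYBL2 and 308, 344, 284 and 232 CPM in siControl (log2 fold change −1.32, SE 0.0422, edgeR adjusted p = 2.84e-10). BMF, a BH3-only protein that unleashes BAX and BAK1, was at 9.64, 3.77, 13.5 and 6.2 CPM in siMYBL2 and 2.55, 2.23, 2.77 and 2.9 CPM in siControl (log2 fold change 1.59, SE 0.197, edgeR adjusted p = 2.11e-05), and BAK1 rose by 0.65. The survival genes MCL1 and BCL2L1 had log2 fold changes of −0.33 and 0.36, both under the fold threshold, and 41.3% of the exon bases of BCL2L1 lie under a gene on the other strand. Of 37 p53 target genes 4 rose and 2 fell. TNFRSF10B is on this list too and was 1 of the 2 falls, at −1.32. Of 3 genes that feed back on p53, 0 passed by edgeR or DESeq2, with 1 lower and 0 higher at an unadjusted p under 0.05. BTG2, an antiproliferative gene, was at 44.2, 36.2, 43.3 and 49.4 CPM in siMYBL2 and 24, 22.8, 24.6 and 24.4 CPM in siControl (log2 fold change 0.85, SE 0.063, edgeR adjusted p = 2.53e-07), ZMAT3 rose by 0.70 and PGF by 1.07, whereas CDKN1A, the p53-induced inhibitor of cyclin-dependent kinases, was at 186, 164, 149 and 139 CPM in siMYBL2 and 136, 145, 102 and 91.8 CPM in siControl and did not reach the fold threshold (0.44).

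Genes that mark the lung epithelial state had 3 falls and 2 rises among 30 (2 and 1 without the block), and EMT factors and mesenchymal genes 2 and 2 among 22 (1 and 2 without the block). GRHL1, an epithelial factor, rose by 1.16. TCF3, a basic helix-loop-helix factor, fell by 0.78, and THY1, a mesenchymal surface protein, rose by 1.18. Of 20 markers of blood, endothelial, fibroblast, neuronal and liver cells, 9 had at most 10 counts in every library and 9 passed the filter on low counts, and the summed level of these 9 was 88.6 to 138 CPM in siMYBL2 and 69.6 to 142 CPM in siControl libraries. CD3E was at 0 in all 8 libraries and PTPRC at no more than 6 counts. CD14 alone of the 9 rose, at 12.9, 11.4, 8.17 and 15.3 CPM in siMYBL2 and 7.58, 4.85, 4.19 and 6.35 CPM in siControl (log2 fold change 1.06, SE 0.103, edgeR adjusted p = 2.68e-06).

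For reference, 22 of 59 S and G2/M core regulators fell (37.3%) and 1 rose (22 and none without the block). E2F8, an atypical E2F, and UBE2C, a ubiquitin carrier of the anaphase-promoting complex, had the largest falls after MYBL2 of those whose counts averaged 50 or more and whose groups were fully separate, with log2 fold changes of −1.31 and −1.24. The values were −0.77 for CCNB1, −0.71 for CCNA2 and −0.74 for FOXM1. MCM2, a subunit of the replicative helicase with 23.6% of its exon bases under a gene on the other strand, was at −0.69.

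The double knockdown offers the same genes in other cultures with their own controls, although its cells also received the FOXM1 siRNAs. The methods name the same MYBL2 siRNA product for both experiments, so siBoth does not test the knockdown with other siRNA sequences. In siBoth, 803 of 15812 genes fell (5.08%) and 1046 rose (6.62%). Which direction had more calls depended on the fit, with 696 falls and 622 rises by DESeq2, 701 and 628 by edgeR without replicate 2, and 576 and 443 without the replicate block. MYBL2 had a log2 fold change of −4.36 there. Of the 728 genes that fell in siMYBL2 and were tested in siBoth, 399 also fell (54.8%, and 49.7% of the falls in siBoth), and 1 rose. Of 1117 genes that had risen, 576 also rose (51.6%, and 55.1% of the rises in siBoth), and 1 fell. The sign was the same for 95.9% and 95.7% of them. In siBoth the log2 fold changes were −2.57 for DAP, −2.11 for VANGL1, −1.61 for CA12, −1.59 for ALDH1A1, 2.32 for ITGAX and 2.04 for ABAT. SLC4A8 rose by 1.65. Of the 18 interferon-stimulated genes that rose 12 rose in siBoth too, IFIT1 by 2.29, and so did 12 of the 14 NF-kB and chemokine genes, CCL2 by 1.48. CPT1A (0.09, edgeR adjusted p = 0.351) and BAK1 (−0.08, edgeR adjusted p = 0.527) did not pass there. Libraries of that experiment had more unaligned reads, 9.09 to 10.9% in siBoth and 7.68 to 7.92% in its controls against 1.97 to 2.40% in siMYBL2 and siControl, and the part of this in the values was not tested.

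**Figure D5:**
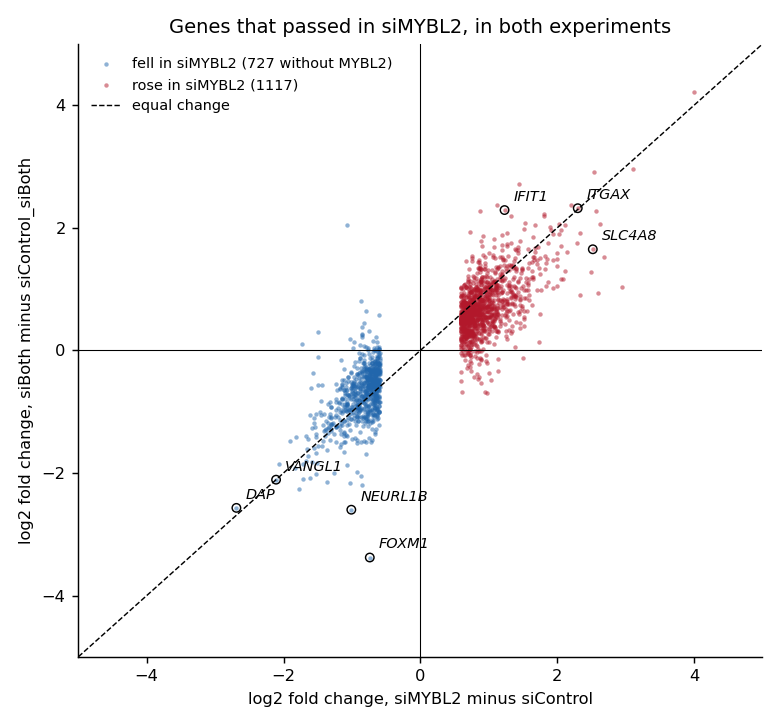
log2 fold change in siMYBL2 vs siControl (horizontal axis) and in siBoth vs siControl_siBoth (vertical axis) for genes that fell (blue) or rose (red) in siMYBL2 and were tested in both, MYBL2 left out, with a dashed line of equal change. Most points lie to the lower left and upper right of zero, DAP, VANGL1 and ITGAX lie near the line, and FOXM1, targeted by the second siRNA product in siBoth, lies far below it.

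A direct test of siMYBL2 against siFOXM1 libraries asked which of these changes differ between the knockdowns. Of 16172 genes, 935 were lower in siMYBL2 than in siFOXM1 (5.78%) and 1373 higher (8.49%). The log2 difference, siMYBL2 minus siFOXM1, was −2.71 for DAP, −2.06 for VANGL1 and −1.57 for CA12. SLC4A8 was higher by 3.38 (edgeR adjusted p = 2.7e-10) and ITGAX by 2.63. CCL2 was higher by 2.14, and 16 of the 38 NF-kB and chemokine genes tested were higher in siMYBL2, as were 12 of 48 interferon-stimulated genes. Against siControl the log2 fold changes were 2.52 for SLC4A8, 2.30 for ITGAX and 1.71 for CCL2. The differences also hold any change in siFOXM1 and are not the sizes of the siMYBL2 rises. The difference was small or turned for several genes. CCNB1 and CCNA2 differed by −0.09 and −0.11 (edgeR adjusted p = 0.0911 and 0.151), and CLDN4 by 0.19 (edgeR adjusted p = 0.068). WWTR1 and NEURL1B, which fell in siMYBL2, were higher there than in siFOXM1, by 0.80 and 1.88.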

How the data were processed

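Poly(A) RNA of A549 cells was sequenced as paired reads. The authors trimmed reads with TrimGalore, aligned them to hg38 with STAR and deposited HTSeq counts per GENCODE V29 gene. The strand setting is not given in the sources used here. HTSeq rows that name no gene held 18.5 to 26.2% of each total and were left out. Of 58721 identifiers, 58207 matched GENCODE V44, from which symbols, exons and 3′ UTRs were taken.

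The fit was edgeR 4.0.16 (R 4.3.3) with filterByExpr, TMM scaling, the quasi-likelihood test and the replicate number as a block, over the 4 siMYBL2 and 4 siControl libraries; the siBoth and siFOXM1 comparisons were fitted likewise. Calls needed a Benjamini-Hochberg adjusted p under 0.05 and a fold over 1.5. The labels number the replicates in each group, and deviations from group means correlated at 0.573, 0.573, 0.785 and 0.875 between same-numbered libraries over 11934 genes, and at no more than 0.114 between others. No 2 replicates agreed within sampling noise (chi-square per gene 11.2 to 62.8). The methods call the replicates biological. The code was tested on simulated data. Cell-cycle lists came from Seurat 5.3.0. Total counts per library set the precision of low genes.

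The gene lists, words and named genes were chosen with earlier results of these data known. The rule named MYBL2, preset genes of each list, the 3 largest falls and rises per list (mean of at least 50 counts, groups not overlapping) and the 10 largest overall (at least 100 counts, cell-cycle lists left out), 211 genes in all, of which those with small or setting-dependent differences are given in counts. ISG15, RIGI, IFIH1, STING1, BIRC3, IL1B, ABCG1, ITGB3, DVL2, RYK, PRICKLE1 and SEMA7A were chosen after their values were seen. Alternatives were DESeq2 1.42.0, other scalings and filters, a GC and length correction, 12 libraries in one fit, glmTreat, no block, and leaving out each replicate. The 6 FDI-6 libraries were not analysed here, and a few genes that the rule names are not reported here.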

Additional observations from a re-analysis of the deposited data

Results flagged for a closer look

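In 23 of the 282 groups of 4 libraries examined (141 genes, siMYBL2 and siControl), 1 library lay far from the other 3, with a gap to its nearest neighbour that took up most of the range of the group. Chance alone flags about 1 in 20 groups. Values are CPM, each followed by the nearest of the other 3. In siControl, the highest library stood apart for ZNF845 in replicate 2 (19.7, next 16.1), SLC4A8 in replicate 3 (8.17, next 5.45) and MFNG in replicate 4 (2.94, next 2.2). The highest siControl library stood apart for BMP2 in replicate 1 (5.69, next 4.19) and FASN in replicate 3 (887, next 677). For CCNA2 in replicate 3 (121, next 93.8), the highest siControl library stood apart. In siMYBL2, the lowest library stood apart for RAI14 in replicate 4 (51.2, next 84.4), NLRP1 in replicate 2 (10.8, next 14.6) and PLAT in replicate 4 (8.51, next 13.1). The lowest siMYBL2 library stood apart for ATG9A in replicate 3 (17.3, next 20.1), TIMP1 in replicate 3 (101, next 128) and BIRC3 in replicate 4 (106, next 270). In siControl, the lowest library stood apart for NLRP1 in replicate 2 (2.5, next 3.52), FAM131B in replicate 3 (3.34, next 5.47) and VANGL2 in replicate 2 (5.97, next 11.9). The lowest siControl library stood apart for NRP1 in replicate 3 (403, next 453). In siMYBL2, the highest library stood apart for LRRC4B in replicate 4 (13.7, next 7.68) and NOVA2 in replicate 4 (13.3, next 8.66). The highest siMYBL2 library stood apart for CPT1A in replicate 4 (216, next 186), HK1 in replicate 4 (167, next 154) and SLC2A12 in replicate 4 (5.34, next 3.59). For ITGA7 in replicate 4 (11.8, next 7.27) and TIAM1 in replicate 4 (11.9, next 10.2), the highest siMYBL2 library stood apart. Replicate 4 of siMYBL2 gave the value for RAI14, LRRC4B, NOVA2, PLAT, CPT1A, HK1, SLC2A12, ITGA7, TIAM1 and BIRC3. What sets these libraries apart was not tested.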

How the results depend on the processing

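Beside 1991 genes called in siMYBL2, 1269 were called without the replicate block (565 lower, 704 higher) and 658 with glmTreat, which tests against the 1.5-fold threshold itself (298 lower, 360 higher). Leaving out each replicate gave 1774 to 2084. In siBoth, where 1849 genes were called and 56.6% of them rose, the fit without the block called 1019 (576 lower and 443 higher, 43.5% rising), DESeq2 called 1318 (696 lower and 622 higher), and leaving out each replicate gave 1329 to 2000. siMYBL2 against siFOXM1 gave 2095 to 2427. The log2 fold change of MYBL2 stayed between −4.78 and −4.53 without each replicate and between −4.62 and −4.54 under 9 other alternatives (largest edgeR or DESeq2 adjusted p 1.49e-05). Of the 141 genes given with values, 141 kept direction and call under DESeq2, RLE scaling, no filter, the GC and length correction and 12 libraries in one fit, and 139 under upper-quartile scaling. A minimum of 10 counts in every library left 139 genes, which kept theirs. The replicate block changed the call of 8, namely CCL2, CXCL8, EGFR, AREG, STING1, BIRC3, IL1B and SEMA7A, and of no other. Of 564 values without each replicate, 559 kept theirs. Genes of the rule with setting-dependent differences had been left to counts, so the stability of these 141 was partly fixed by that choice. Over all genes DESeq2 called 1651, beside 1991 by edgeR. Without the block the count of rises moved by over 1.5 times in 18 of 34 lists and that of falls in 7. Depth limits the precision of low genes, and 44% of the rises had a mean under 50 counts.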
